A study of Homo sapiens with 6 samples.

Results

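The BCL2 family sets the threshold at which the outer mitochondrial membrane is breached during apoptosis. Ribosome footprints on 10 of its genes were followed in K562 cells, a human chronic myelogenous leukemia line, with and without depletion of N6AMT1, whose product methylates eRF1, the factor that reads stop codons. The 10 genes were chosen by symbol: the pro-survival genes BCL2, BCL2L1 (BCL-XL) and MCL1, the pore-forming effectors BAX and BAK1, the BH3-only genes BCL2L11 (BIM), BID, BBC3 (PUMA) and PMAIP1 (NOXA), and the atypical member BCL2L13. They are 10 of 19330 genes in the table, each with 1 transcript. The rule that picks them uses no measured value, but the set was chosen with earlier results of these data known.

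Ribosome profiling (Ribo-Seq) sequences the pieces of mRNA that a ribosome shields from nuclease, so counts over a coding sequence (CDS) follow ribosome occupancy, which reflects mRNA abundance as well as translation. Both groups received the lentiviral CRISPR/Cas9 vector pLentiCRISPRv2 and 48 h of puromycin, and were harvested on day 10 after infection. The 3 sgCtrl libraries carried guides against OR11A1 or OR2M49, as the labels spell these olfactory receptor genes, and the 3 sgN6AMT1 libraries carried guides against N6AMT1. No cloning step is described, each replicate was an independent infection per the study's methods, and which guide each library carried is not stated. The libraries held between 1821356 and 2969736 counts, of which the family took between 0.0394% and 0.0403% in sgCtrl and between 0.0427% and 0.0446% in sgN6AMT1.

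Footprints on N6AMT1 itself numbered 25, 24 and 34 in sgCtrl and 10, 9 and 8 in sgN6AMT1. The log2 fold change of N6AMT1 was -1.51 ± 0.31 (SE, edgeR quasi-likelihood test, Benjamini-Hochberg adjusted p = 6.69e-05). All 12 erythroleukemia markers were detected, with summed levels of 29286 to 30896 CPM (counts scaled to a common library size) in sgCtrl and 30180 to 31269 in sgN6AMT1. The sum was mostly HBG1 and HBG2 and does not show single markers, which moved both ways. In raw counts, LMO2 was at 79, 125 and 82 in sgCtrl and 25, 43 and 30 in sgN6AMT1. HBE1 was at 6925, 9840 and 7769 in sgCtrl and 11471, 11526 and 9067 in sgN6AMT1. The 4 genes of the 9p21 region that K562 lacks had 0 counts in every library. Of 10 markers of other cells, MS4A1 and CDH5 were at 0, and 3 of the 10 never passed 3 counts. The summed level of these markers was 261 to 308 CPM in sgCtrl and 355 to 394 CPM in sgN6AMT1, most of it from EPCAM, LYZ and PTPRC, and its part in the results below was not tested.

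In healthy cells the pro-survival proteins hold BAX, BAK and the BH3-only proteins in a groove on their surface. Stress raises or activates BH3-only proteins, whose BH3 helix fills that groove or engages BAX and BAK directly. Once freed, BAX and BAK assemble into pores that release cytochrome c, and caspases follow. Chronic myelogenous leukemia cells are known to draw on BCL-XL and MCL1 for survival.

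The shared element of the family is the BH3 core, read here as a leucine codon, 3 further codons, a glycine or alanine codon and an aspartate codon. A search of the CDS of the MANE Select transcript, the reference transcript chosen for each gene, found it in 9 of the 10 genes, while BCL2L13 held no match. The pattern is short, and 25.2% of 19061 MANE Select CDS held it somewhere, so a match describes letters and not a function. The stretches below, 39 bases each on the coding strand, are shown because pro-survival, effector and BH3-only genes share this element. Capitals mark the core, and coordinates (GRCh38) are those of the capitals.
MCL1 (chr1:150578877-150578894, minus strand): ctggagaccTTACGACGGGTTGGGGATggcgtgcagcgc
BCL2L1 (chr20:31721934-31721951, minus strand): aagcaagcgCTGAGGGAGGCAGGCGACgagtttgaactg
BCL2 (chr18:63318361-63318378, minus strand): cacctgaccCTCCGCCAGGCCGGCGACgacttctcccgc
BAX (chr19:48955787-48955804, plus strand): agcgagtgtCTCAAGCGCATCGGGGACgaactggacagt
BAK1 (chr6:33575399-33575416, minus strand): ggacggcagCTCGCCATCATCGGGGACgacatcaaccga
BCL2L11 (chr2:111150103-111150120, plus strand): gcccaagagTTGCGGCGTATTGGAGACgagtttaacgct
BID (chr22:17739427-17739444, minus strand): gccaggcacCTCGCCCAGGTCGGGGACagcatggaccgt
BBC3 (chr19:47226591-47226608, minus strand): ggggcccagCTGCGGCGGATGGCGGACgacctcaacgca
PMAIP1 (chr18:59902673-59902690, plus strand): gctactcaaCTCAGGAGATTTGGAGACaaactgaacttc

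BBC3 held the alanine form of the core, and the other 8 genes the glycine form. The core began at codon 29 of the 54 codons of PMAIP1 and at codon 213 of the 350 codons of MCL1, which carries a long stretch ahead of its BH domains. In BBC3 and PMAIP1 the transcript listed in the table has another reading frame over the core than MANE Select has, which bears on what was counted. The listed CDS of PMAIP1 has 136 codons and holds all bases of the MANE Select CDS of 54 codons, but only 35.2% of them in the same frame. For BBC3 the listed CDS of 261 codons also holds all bases of the MANE Select CDS of 193 codons, with 0% in the same frame. The deposited counts are not separated by frame, so a PMAIP1 or BBC3 count can hold footprints of either frame.

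The listed CDS was identical to MANE Select for BAK1, BCL2, BCL2L1, BCL2L11 and MCL1, that is 5 of 10 genes, against 82.5% of the 17171 genes with both. BID had an in-frame extension, with 241 listed codons against 195. BAX had 218 codons against 192 and shared 81.9% of the MANE Select CDS, and BCL2L13 had 509 against 485 and shared 91.7%.

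Because N6AMT1 methylates eRF1, the stop codons of the family are shown for the 3 genes that passed the test. Averaged over transcripts, the study saw unchanged ribosome occupancy at stop codons and reported no global effect on termination. Each line gives the last bases of the CDS, the stop codon in capitals and the bases after it, in the MANE Select transcript.
PMAIP1: ttctgctcaggaaccTGActgcat
BCL2L1: ctcttcagtcggaaaTGAccagac
BCL2L13: gctctgagaaagaaaTAGgaggct

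PMAIP1 and BCL2L1 ended in TGA followed by C, and BCL2L13 ended in TAG followed by G. TGA followed by C also closed BAK1 and BCL2L11, which did not pass. The transcript of PMAIP1 listed in the table ended in TGA followed by G instead. Across the family TGA closed 7 of 10 CDS (49.1% of all MANE Select CDS), TAG closed 3 (BBC3, BCL2L13 and MCL1, 22.4% of all), and TAA closed 0 (28.4% of all). Both TGA and TAG thus occurred among the members that passed the test and among those that did not.

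In sgN6AMT1, footprints rose on PMAIP1 by 2.07-fold and on BCL2L1 by 1.51-fold, and fell on BCL2L13 to 0.756 of the sgCtrl level. Footprints on MCL1, the member with the highest level, lay within the replicate spread in both groups. BAX was higher in all 3 sgN6AMT1 libraries without passing the adjusted threshold, and BAK1, BCL2L11, BID and BBC3 overlapped between the groups. Thus 3 of the 9 members that could be tested passed (33.3%), where 26.9% of all 9202 genes tested did, a share near the background that is no result about the family. Of these 3, 2 were higher (12.9% of all genes tested) and 1 was lower (13.9%). The 2 groups of libraries were fully separate for 4 members (44.4%), against 37.5% of all genes tested, and the median log2 fold change was 0.136 over the 9 members and 0.0063 over all genes tested.

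**Figure D1:**
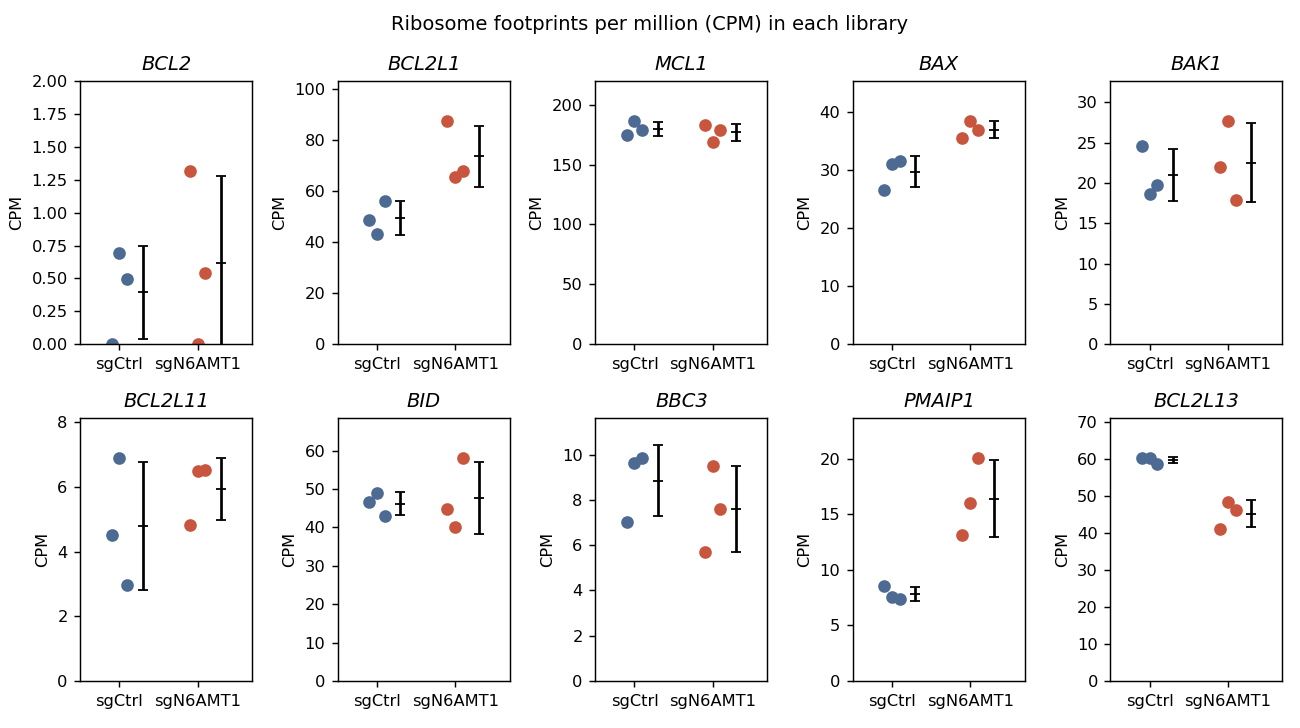
Footprints (CPM) on each of the 10 genes in each library, with sgCtrl in blue and sgN6AMT1 in red. Points are libraries, bars are the mean ± SD (n = 3), and every axis starts at 0 with its own range. The groups do not overlap for BCL2L1, BAX, PMAIP1 and BCL2L13, and BCL2 never passes 1.31 CPM.

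BCL2L1 (chr20:31664458-31722868, minus strand), which encodes the pro-survival protein BCL-XL, measured 48.7, 43.1 and 56.2 CPM in the sgCtrl libraries. In the sgN6AMT1 libraries it measured 87.2, 65.2 and 67.9 CPM. The lowest sgN6AMT1 library lay above the highest sgCtrl library, and replicate 1 stood highest. The means were 49.3 ± 6.58 and 73.4 ± 12.0 CPM (SD, n = 3), and the log2 fold change was 0.59 ± 0.12 (SE, 95% interval 0.36 to 0.83, edgeR quasi-likelihood test, Benjamini-Hochberg adjusted p = 4.00e-05). This call held in 16 of 16 alternative analyses, with log2 fold changes of 0.45 to 0.69. BCL2L1 is spliced into a long pro-survival form and a short pro-apoptotic form. The listed transcript is the long form, and the table has no separate row for the short one, so the counts do not tell the forms apart.

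MCL1 (chr1:150574558-150579610, minus strand) encodes a short-lived pro-survival protein that must be made continuously. It measured 174.8, 186.2 and 178.5 CPM in sgCtrl and 182.8, 168.5 and 179.1 CPM in sgN6AMT1. The ranges overlapped, with the highest library in sgCtrl and the lowest in sgN6AMT1. MCL1 had a log2 fold change of -0.03 ± 0.072 (SE, 95% interval -0.17 to 0.11, edgeR adjusted p = 0.811). Over 16 alternatives it ranged from -0.15 with CDS length and GC trends removed (edgeR adjusted p = 0.0771) to 0.03 with libraries scaled by total counts (edgeR adjusted p = 0.828), and none passed.

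BCL2 (chr18:63123346-63319769, minus strand), the founding member, was at or under 3 counts in each library. Its counts were 0, 2 and 1 in sgCtrl and 3, 0 and 1 in sgN6AMT1. The floor of 3 counts stood for 1.01 to 1.65 CPM without TMM scaling, depending on the library. Pooled, 3 of 7081646 counts in sgCtrl gave 0.424 CPM without TMM scaling (exact 95% interval 0.0874 to 1.24) and 4 of 6349730 in sgN6AMT1 gave 0.63 (0.172 to 1.61), intervals that cover counting error only. It did not pass the low-count filter, and a fit without that filter gave a log2 fold change of 0.46 ± 1.19 (SE, 95% interval -1.87 to 2.79, edgeR adjusted p = 0.836), so a change in BCL2 was not detectable at this depth.

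Per kb of listed CDS, the scale on which genes can be set against each other, the pro-survival footprints were almost wholly MCL1 and BCL2L1. MCL1 took 70.5%, 73.9% and 67.7% of the 3 genes' summed CPM per kb in sgCtrl and 57.9%, 63.3% and 63.6% in sgN6AMT1. BCL2L1 took 29.5%, 25.7% and 32.0% in sgCtrl and 41.5%, 36.7% and 36.1% in sgN6AMT1. All sgN6AMT1 libraries thus had a larger BCL2L1 share than any sgCtrl library.

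The mean BCL2L1 share was 29.0% ± 3.18 in sgCtrl and 38.1% ± 2.92 in sgN6AMT1 (SD, n = 3, exact 2-sided permutation p = 0.1, the smallest that 3 against 3 allows, or 0.233 adjusted over the 7 measures computed), so this comparison could not pass a threshold of 0.05. The ratio of MCL1 to BCL2L1 per kb was 2.46 ± 0.386 in sgCtrl and 1.63 ± 0.199 in sgN6AMT1 (SD, n = 3, exact permutation p = 0.1). Shares and ratios rest on the same counts as the fold changes above and are no further evidence of them.

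BAX (chr19:48954929-48961798, plus strand), the effector that moves from the cytosol to the mitochondrion, measured 26.6, 31.0 and 31.6 CPM in sgCtrl and 35.5, 38.5 and 36.9 CPM in sgN6AMT1. Every sgN6AMT1 library lay above every sgCtrl library. The log2 fold change of 0.31 ± 0.14 (SE, 95% interval 0.02 to 0.59) did not pass the adjusted threshold in the edgeR test (unadjusted p = 0.0343, Benjamini-Hochberg adjusted p = 0.103). Among 16 alternatives, scaling by total counts was the only one to pass (0.36, edgeR adjusted p = 0.0476), and the smallest value, 0.18 (edgeR adjusted p = 0.355), came with CDS length and GC trends removed.

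BAK1 (chr6:33572552-33580276, minus strand), the effector that resides in the outer membrane, measured 24.6, 18.6 and 19.7 CPM in sgCtrl and 21.9, 27.6 and 17.9 CPM in sgN6AMT1. The sgN6AMT1 group held both the highest and the lowest library. The log2 fold change was 0.14 ± 0.18 (SE, 95% interval -0.23 to 0.50, edgeR adjusted p = 0.634). A difference between the BAX and BAK1 changes was not tested.

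PMAIP1 (chr18:59900016-59903537, plus strand) encodes NOXA, a small BH3-only protein best known for binding MCL1. Its counts were 17, 22 and 15 in sgCtrl and 30, 37 and 37 in sgN6AMT1, or 8.54, 7.58 and 7.39 CPM against 13.1, 16.0 and 20.1 CPM. The groups were far apart, with the lowest sgN6AMT1 library well above the highest sgCtrl library, and the spread was wider in sgN6AMT1. The means were 7.84 ± 0.613 and 16.4 ± 3.49 CPM (SD, n = 3), and the log2 fold change was 1.05 ± 0.25 (SE, 95% interval 0.56 to 1.54, edgeR quasi-likelihood test, Benjamini-Hochberg adjusted p = 0.000481).

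This was the largest change among the 10 members, and 200 of the genes tested (2.17%) had a log2 fold change at or above it. It passed in all 15 alternative analyses that could test it, with log2 fold changes of 0.89 to 1.19, but its counts were too low for a filter at a mean of 50. Its listed CDS of 411 bases was shorter than that of all but 5.62% of genes tested.

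BBC3 (chr19:47220824-47232766, minus strand) encodes PUMA, a BH3-only protein that binds every pro-survival member. It measured 7.03, 9.65 and 9.86 CPM in sgCtrl and 5.70, 9.50 and 7.60 CPM in sgN6AMT1. The groups overlapped, at a log2 fold change of -0.23 ± 0.29 (SE, 95% interval -0.80 to 0.33, edgeR adjusted p = 0.599). It was -0.45 without sgN6AMT1 replicate 2 and -0.05 without sgN6AMT1 replicate 1. Its CDS was the most GC-rich of the family at 74.0%, above 99.8% of genes tested.

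BCL2L11 (chr2:111120914-111168444, plus strand) encodes BIM, which BCR-ABL signalling is known to hold low through ERK. It measured 4.52, 6.90 and 2.96 CPM in sgCtrl and 4.82, 6.48 and 6.51 CPM in sgN6AMT1. With 6 to 20 counts per library its interval was wide, with a log2 fold change of 0.22 ± 0.35 (SE, 95% interval -0.47 to 0.92, edgeR adjusted p = 0.690), an interval that holds both 0 and the change of BCL2L1.

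BID (chr22:17734138-17774016, minus strand) is cut by caspase-8 and so ties death receptors to mitochondria. It measured 46.7, 49.0 and 42.9 CPM in sgCtrl and 44.7, 40.2 and 58.1 CPM in sgN6AMT1. Its highest and its lowest library were both sgN6AMT1, and the log2 fold change was 0.02 ± 0.13 (SE, 95% interval -0.23 to 0.27, edgeR adjusted p = 0.944).

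BCL2L13 (chr22:17638584-17730855, plus strand) lies 3283 bases from BID and encodes an outer membrane protein with BH motifs that is also known as a mitophagy receptor. It measured 60.3, 60.3 and 58.7 CPM in sgCtrl and 41.2, 48.4 and 46.1 CPM in sgN6AMT1. The sgCtrl libraries were tightly grouped and all lay above the sgN6AMT1 libraries. The means were 59.8 ± 0.946 and 45.2 ± 3.68 CPM (SD, n = 3), and the log2 fold change was -0.40 ± 0.12 (SE, 95% interval -0.64 to -0.17, edgeR quasi-likelihood test, Benjamini-Hochberg adjusted p = 0.00620). The call was lost with DESeq2 (-0.41, adjusted p = 0.0839) and without sgN6AMT1 replicate 1 (-0.34, edgeR adjusted p = 0.0510), while the direction held in all 16 alternatives.

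**Figure D2:**
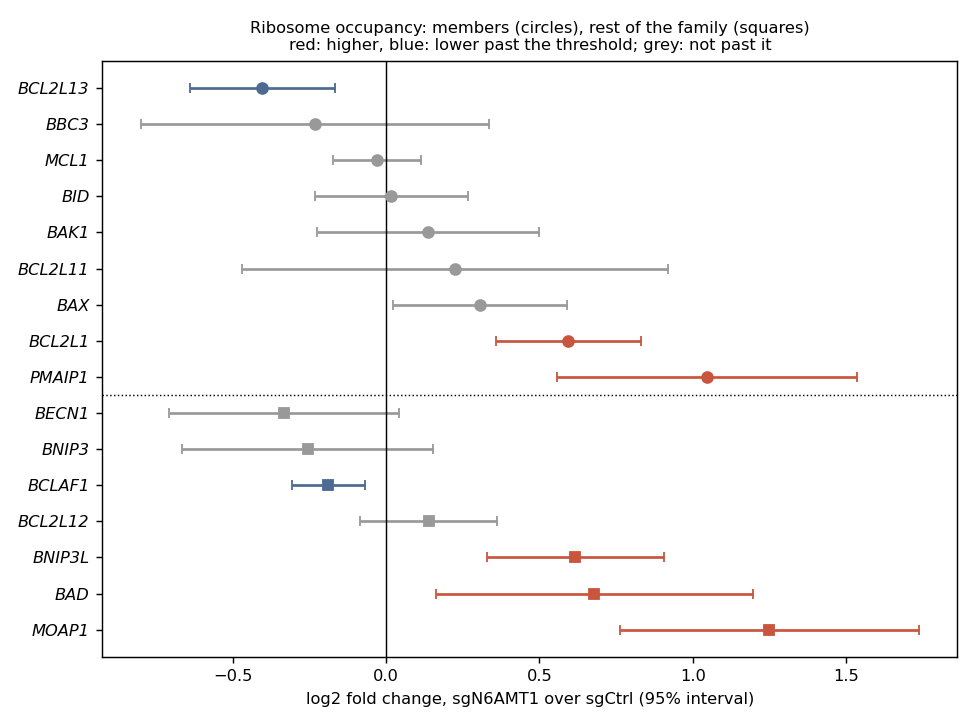
Log2 fold change, sgN6AMT1 over sgCtrl, with 95% intervals from the edgeR fit of 3 against 3 libraries. Circles are the 9 members tested, and squares under the dotted line are 7 further tested genes of the family and its partners. Red marks higher, blue lower and grey genes not past the threshold. PMAIP1 (1.05) and BCL2L1 (0.59) lie to the right and BCL2L13 (-0.40) to the left of 0, and the interval of BCL2L11 is the widest among the members.

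Ordered by CPM per kb of listed CDS, MCL1 stood first in sgCtrl at 171 ± 5.51 (SD, n = 3), followed by BCL2L1 at 70.3 ± 9.37 and BID at 63.6 ± 4.22. BAX (45.3 ± 4.12), BCL2L13 (39.1 ± 0.619) and BAK1 (33.0 ± 5.02) came next, and PMAIP1 (19.1 ± 1.49), BBC3 (11.3 ± 2.01), BCL2L11 (8.03 ± 3.32) and BCL2 (0.547 ± 0.493) formed the lower end. Neighbours whose libraries overlapped, and so did not differ beyond their spread, were BCL2L1 with BID, BCL2L13 with BAK1, and BBC3 with BCL2L11.

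In sgN6AMT1 the upper places were kept by MCL1 (168 ± 7.05), BCL2L1 (105 ± 17.1), BID (65.6 ± 12.8) and BAX (56.3 ± 2.24). BCL2L1 no longer overlapped BID. PMAIP1 (39.9 ± 8.49) moved from place 7 to place 5, where its libraries overlapped those of BAK1, and BCL2L13 (29.6 ± 2.40) moved from place 5 to place 7, where its libraries also overlapped those of BAK1. BID and BAX overlapped too. With the same counts divided by the MANE Select CDS length, PMAIP1 was at 47.5 CPM per kb in sgCtrl and 99.4 in sgN6AMT1. On that scale BID (78.6) stood above BCL2L1 (70.3) in sgCtrl. Places among the members thus depend on the CDS length used, and the counts may cover bases outside the MANE Select CDS.

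**Figure D3:**
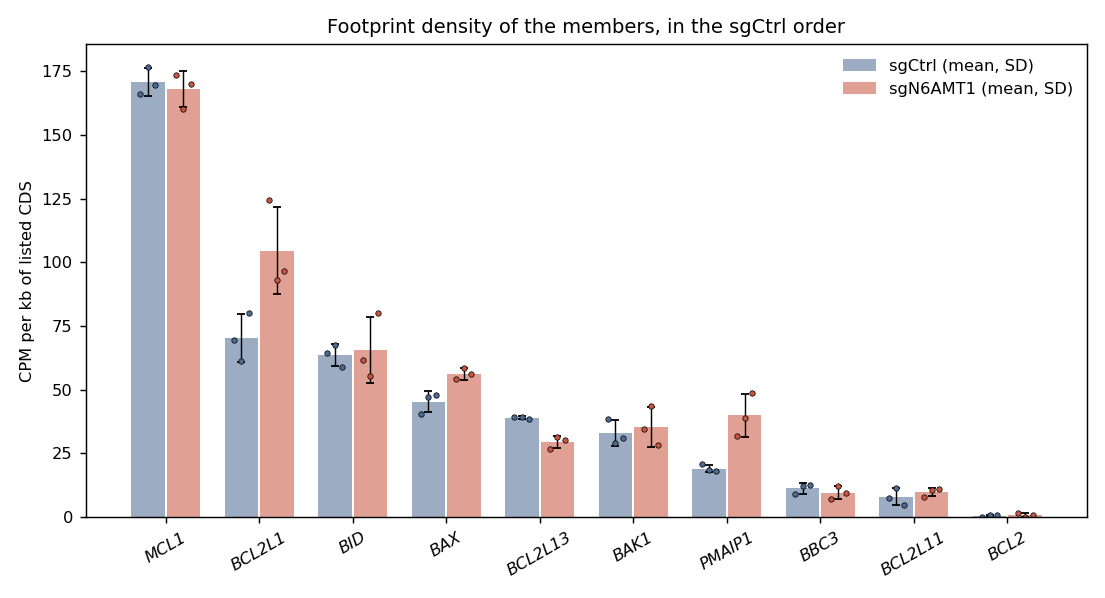
CPM per kb of listed CDS for each of the 10 genes, ordered by the sgCtrl mean, with bars for the group mean, error bars for the SD (n = 3) and 1 point per library (sgCtrl blue, sgN6AMT1 red). MCL1 leads in both groups, at 171 and 168 CPM per kb, and PMAIP1 is above BCL2L13 in sgN6AMT1 and below it in sgCtrl.

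Summed by role, the footprints gave ratios whose libraries overlapped between the groups, and 3 against 3 libraries could not have passed a threshold of 0.05. Pro-survival over effector per kb came to 3.09 ± 0.103 in sgCtrl and 3.01 ± 0.474 in sgN6AMT1 (SD, n = 3, exact permutation p = 1). The ratio of pro-survival to BH3-only footprints was 2.38 ± 0.240 and 2.23 ± 0.485 (exact permutation p = 0.7), and that of BH3-only to effector footprints 1.30 ± 0.120 and 1.38 ± 0.339 (exact permutation p = 0.9). All 3 ratios had the wider spread in sgN6AMT1. With MANE Select lengths, an alternative added after seeing the data, pro-survival over BH3-only came to 1.62 ± 0.147 and 1.38 ± 0.321 (SD, n = 3, exact permutation p = 0.3) and BH3-only over effector to 1.77 ± 0.133 and 2.07 ± 0.508 (exact permutation p = 0.5), so these levels depend on the CDS length used.

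The remaining genes of the death pathways were read from 8 lists. The table held 99 of their genes, of which 67 were tested: 16 were higher, 9 lower and 42 did not pass (37.3% called against 26.9% of all genes tested, median log2 fold change 0.0681). The counts for single lists below stand against the same 26.9%, and no list was tested as a set. Among 16 further genes, called the wider family here, 7 were tested, of which 3 were higher and 1 lower. This list holds partner genes, MOAP1 and BCLAF1 among them, besides BCL2 relatives and BH3-only genes. MOAP1, which helps activate BAX, rose from 7.21 to 17.3 CPM (log2 fold change 1.25 ± 0.25, SE, edgeR adjusted p = 2.61e-05). BNIP3L, a mitophagy receptor of red cell precursors, rose from 26.6 to 40.6 CPM (0.62 ± 0.15, edgeR adjusted p = 0.000499). The BH3-only gene BAD was called higher with overlapping groups (0.68 ± 0.26, edgeR adjusted p = 0.0418) and lost its call in 6 of 15 alternatives. BCLAF1 fell (log2 fold change -0.19 ± 0.060, edgeR adjusted p = 0.0114) and lost its call in 3 of 16.

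Upstream of BID, 8 of 14 death receptor genes were tested, and 3 were higher and 1 lower, where 26.9% of all genes tested passed. The TRAIL receptor gene TNFRSF10B measured 15.1, 12.8 and 13.8 CPM in sgCtrl and 29.8, 32.4 and 26.1 CPM in sgN6AMT1 (log2 fold change 1.10 ± 0.18, SE, edgeR adjusted p = 8.94e-07). CRADD, a death-domain adaptor of caspase-2, rose from 23.9 to 59.8 CPM (1.35 ± 0.14, edgeR adjusted p = 3.59e-14), and the call of TNFRSF1A (0.37 ± 0.14, edgeR adjusted p = 0.0325) was lost in 7 of 16 alternatives. Another TRAIL receptor gene, TNFRSF10A, fell (log2 fold change -0.34 ± 0.11, edgeR adjusted p = 0.0133, lost in 3 of 16 alternatives). FAS and the TRAIL receptor genes TNFRSF10C and TNFRSF10D had 0 counts in every library.

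Downstream of the pore, CYCS, which encodes cytochrome c, fell from 829 ± 46.3 to 606 ± 21.5 CPM (SD, n = 3, log2 fold change -0.45 ± 0.051, SE, edgeR adjusted p = 3.77e-12), the only call among 6 tested genes of the apoptosome and the released proteins. Of 6 caspases tested, CASP10 rose from 25.1 to 40.7 CPM (0.68 ± 0.15, edgeR adjusted p = 0.000159) and 5 did not pass. Of 4 inhibitors of apoptosis, BIRC6 fell from 217 to 163 CPM (-0.42 ± 0.074, edgeR adjusted p = 2.58e-06), and BIRC5 (0.21 ± 0.078, edgeR adjusted p = 0.0294) lost its call in 6 of 16 alternatives.

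Of 7 tested genes for ubiquitin enzymes that act on MCL1 or BH3-only proteins, HUWE1, a ligase for MCL1, fell from 389 to 320 CPM (log2 fold change -0.28 ± 0.059, SE, edgeR adjusted p = 0.000103). RNF7, the RING partner of CUL5 in a ligase that acts on NOXA, rose from 18.7 to 31.1 CPM (0.77 ± 0.17, edgeR adjusted p = 0.000244). Among 15 outer membrane partners and chaperones, 3 were higher and 2 lower, against 26.9% of all genes tested called in either direction. MTCH2, the membrane receptor for the cut form of BID, fell from 232 to 196 CPM (-0.24 ± 0.067, edgeR adjusted p = 0.00374), and the call of YWHAQ (0.16 ± 0.059, edgeR adjusted p = 0.0303) was lost in 7 of 16 alternatives. HSPA1A rose (0.57 ± 0.051, edgeR adjusted p = 1.10e-16), an uncertain value because the gene has a near-identical copy.

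Of 14 tested regulators of the family, 4 were higher and 2 lower, against 26.9% of all genes tested called in either direction. STAT5A, which drives BCL2L1 transcription downstream of BCR-ABL, fell from 394 ± 12.8 to 197 ± 16.2 CPM (SD, n = 3, log2 fold change -1.01 ± 0.064, SE, edgeR adjusted p = 2.68e-25). STAT5B, on the same list, did not pass, at 143 CPM in sgCtrl and 132 in sgN6AMT1 (-0.12 ± 0.081, edgeR adjusted p = 0.280). A tie between these values and the rise of BCL2L1 was not tested. PIM1, a kinase that inactivates BAD, rose from 224 to 401 CPM (0.84 ± 0.062, edgeR adjusted p = 3.31e-21), and MAPK8, the stress kinase JNK1, fell from 29.4 to 15.3 CPM (-0.94 ± 0.18, edgeR adjusted p = 1.74e-05). ATF4, known to activate PMAIP1, had a log2 fold change of 0.53 (edgeR adjusted p = 0.00414), and DESeq2 did not call it (adjusted p = 0.0962). ATF4 was named here after its value was seen. TRIB3, on the same list, did not pass (-0.16 ± 0.13, edgeR adjusted p = 0.380). DDIT3, also on that list, was under the low-count filter and lay lower in sgN6AMT1 (-1.57 ± 0.62 without that filter, edgeR adjusted p = 0.0584). A tie between these values and the rise of PMAIP1 was not tested.

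**Figure D4:**
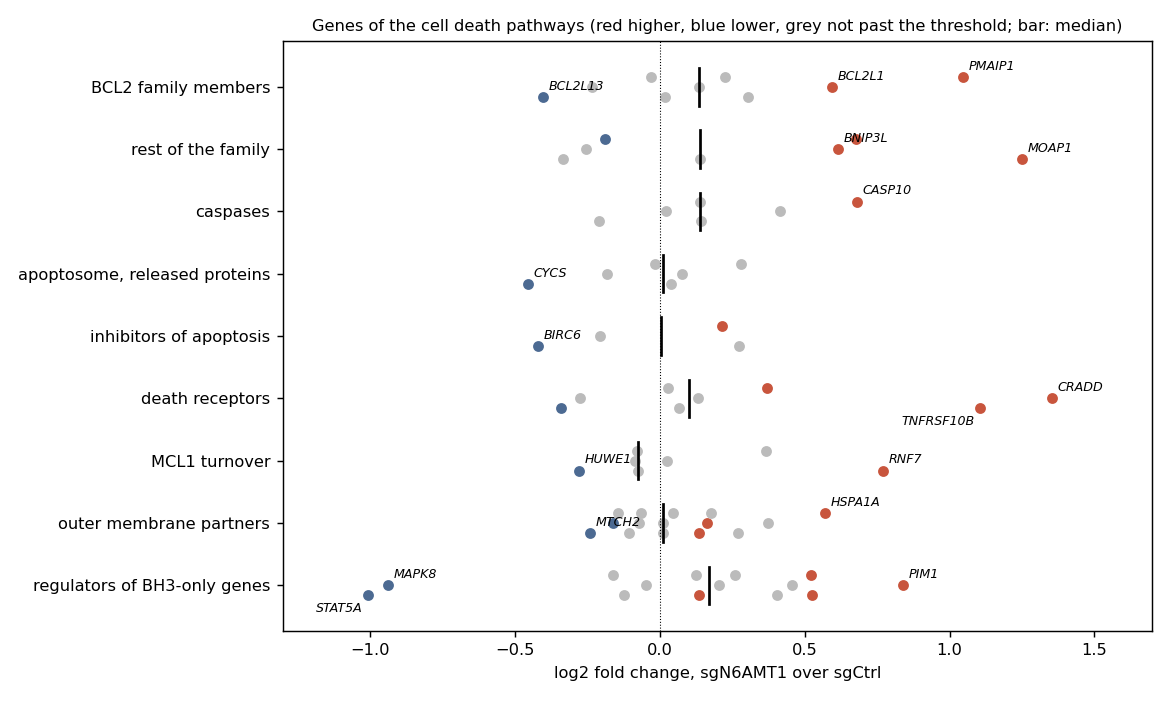
Log2 fold change, sgN6AMT1 over sgCtrl, of the tested genes of the BCL2 family members and of the 8 pathway lists, 1 point per gene (red higher, blue lower, grey not past the edgeR threshold), with the list median as a bar. List medians lie near 0, between -0.08 and 0.17.

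Of 7803 genes at 10 CPM or more on average, the 3 whose profile over the 6 libraries was most like that of PMAIP1 were ADGRE2, PLK3 and VAT1. Their root mean square differences in centred log2 CPM were 0.140, 0.143 and 0.146, and their log2 fold changes 0.88, 0.96 and 0.95. They were picked by these same libraries, so fold changes near that of PMAIP1 follow from the choice and are no separate result.

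**Figure D5:**
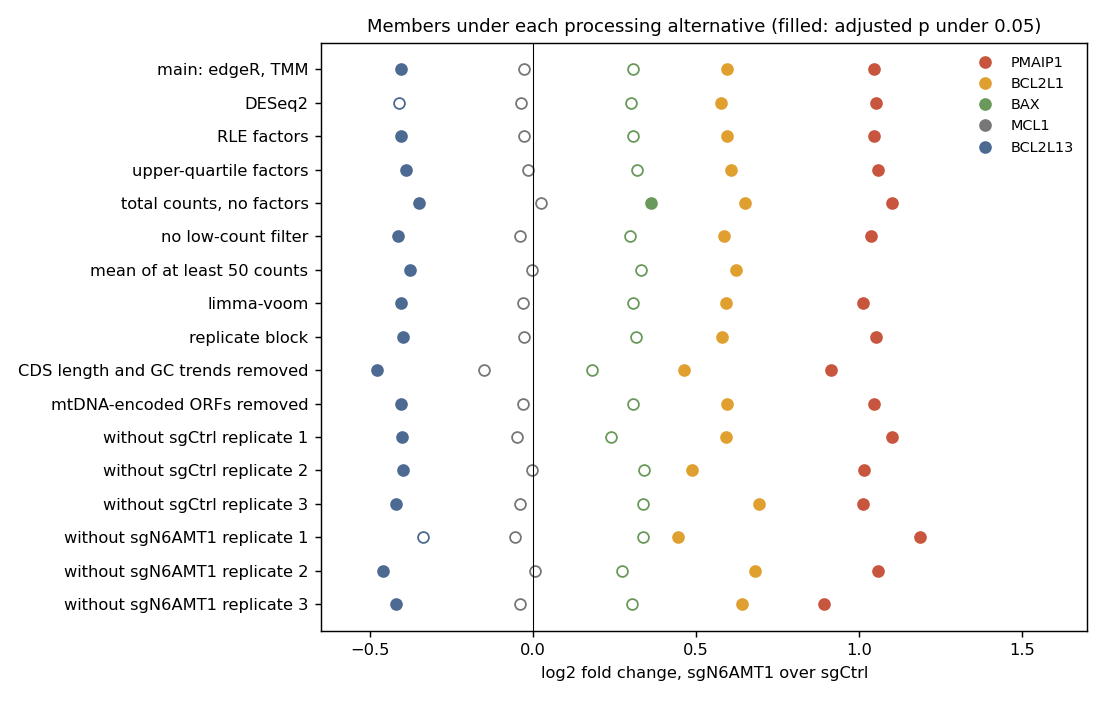
Log2 fold change, sgN6AMT1 over sgCtrl, of PMAIP1, BCL2L1, BAX, MCL1 and BCL2L13 in the main analysis (top line) and in each of 16 alternative analyses, with filled points where the adjusted p was under 0.05. BCL2L1 stays between 0.45 and 0.69 and PMAIP1 between 0.89 and 1.19, BCL2L13 loses its call in 2 of 16 alternatives, and the values of MCL1 fall on both sides of 0.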

How the data were processed

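Footprints were measured in 3 sgCtrl and 3 sgN6AMT1 libraries. The authors deposited whole-number counts per transcript: adapters were trimmed with cutadapt, reads were filtered by length and mapped with HISAT2 to GRCh38, rRNA and tRNA reads were removed, the rest was mapped to canonical transcripts with bowtie2, and P-sites from riboWaltz were summed over the CDS. The authors also made counts by overlap with gene models, and which of these was deposited is not stated. Versions are not given in the sources used here. Without the RNA sequencing, not used here, no translational efficiency was computed.

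Counts were compared in R 4.3.3 by edgeR 4.0.16: filterByExpr at its minimum of 10 counts, which left 9202 genes and removed 10128, TMM factors, and the 2-sided quasi-likelihood F test with Benjamini-Hochberg adjustment at 0.05. CPM are counts scaled to the TMM-adjusted library size, and SEs derive from the F statistic. Exact permutation tests (2-sided) were used for ratios and shares. Coordinates, CDS and MANE Select tags came from GENCODE release 44 (GRCh38), which matched 91.5% of listed transcripts, all 10 members included. Alternatives were DESeq2 1.42.0, limma-voom (limma 3.58.1), other factors and filters, a replicate block, removal of CDS length and GC trends (loess, span 0.5) and of mtDNA-encoded ORFs, and each library left out. MANE Select lengths, and all alternatives for the ratios between roles, were added after seeing the data. Tests were run on simulated data first.

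Members and lists were chosen with earlier results of these data known. The text names all members, called genes of the wider family, and up to 3 called genes per other list whose groups did not overlap and whose mean reached 10 CPM. Other named genes were chosen after their values were seen. Chi-square per degree of freedom was 1.25 to 1.68 within groups and 4.89 to 7.04 between them. No molecular identifiers are described, so counts are not independent molecules.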

Additional observations from a re-analysis of the deposited data

How the results depend on the processing

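The calls of BCL2L1 and PMAIP1 held in every alternative that tested them. DESeq2 called 1329 genes (588 higher, 741 lower) against 2473 (1191 and 1282), and 0 members lower (BCL2L13, -0.41). It called 2 genes of the wider family, 1 inhibitor of apoptosis, 2 death receptor genes, 2 outer membrane partners and 3 regulators. A mean of at least 50 counts left BAK1, BCL2L11, BBC3 and PMAIP1 untested, with 1 member higher, 2 genes of the wider family and 2 caspases called. Total counts called 2 caspases and gave BAX 0.36 and MCL1 0.026, and moved the share of calls that were lower from 51.8% to 38.5%. Without trends on CDS length and GC content that share was 61.0%, BID was at -0.12, MCL1 at -0.15 and BAX at 0.18, and 2 apoptosome genes and 1 inhibitor of apoptosis were called. Without a low-count filter 1 inhibitor of apoptosis and 3 outer membrane partners were called. The replicate number as a block gave 2390 genes, 3 members and 3 outer membrane partners. Same-numbered libraries did not deviate together (correlations of -0.079, 0.0022 and 0.017), so the numbers were not read as a pairing.

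With each library left out in turn, 0 to 1 members were lower (0 without sgN6AMT1 replicate 1, BCL2L13 at -0.34 in a range of -0.46 to -0.34), and 2 to 4 genes of the wider family (2 without sgCtrl replicate 2), 1 to 2 caspases, 1 to 2 inhibitors of apoptosis, 2 to 4 death receptor genes (2 without sgCtrl replicate 2) and 3 to 7 outer membrane partners were called. Signs turned within the ranges of MCL1 (-0.056 to 0.0066), BAK1 (-0.046 to 0.25), BCL2L11 (-0.0059 to 0.65), BID (-0.13 to 0.13, and -0.03 without sgCtrl replicate 3) and the BCL2 share of pro-survival footprints (-0.084 to 0.22 percentage points, and -0.04 without sgCtrl replicate 1). BBC3 ranged from -0.45 to -0.05. The pro-survival over effector difference (-0.075) ranged from -0.26 to 0.19 with each library left out, pro-survival over BH3-only (-0.147) from -0.41 to 0.075, and BH3-only over effector (0.079) from -0.115 to 0.197, the last at -0.014 with raw counts. The cause of these shifts was not tested. Depth limits BCL2, which was under the filter, and BCL2L11, BBC3 and PMAIP1, whose intervals are wide.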

Other observations

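Some genes of the death pathways were too low for the test. A fit without the low-count filter called 2495 of 13622 genes. It held 21 of these low list genes, of which 14 had a positive and 7 a negative log2 fold change, 1 passed the edgeR threshold and 3 had an unadjusted p under 0.05. The gene that passed was TNFSF10, which encodes the ligand TRAIL and held 1, 2 and 5 footprints in the sgCtrl libraries against 8, 14 and 6 in the sgN6AMT1 libraries (log2 fold change 1.85 ± 0.56, SE, edgeR adjusted p = 0.00851). DDIT3, a transcription factor of the stress response, lay the other way at 5, 11 and 7 against 3, 2 and 2 (-1.57 ± 0.62, edgeR adjusted p = 0.0584). BIRC7, an inhibitor of apoptosis, held 0, 0 and 0 against 3, 2 and 1 (edgeR adjusted p = 0.0715), at or under the floor of 3 counts in every library. Over the 8 lists, 11 genes had 0 counts in every library and 20 never passed 3 counts.

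The CDS of the 10 members were shorter and richer in GC than those of the genes tested, with medians of 711 bases and 59.8% GC against 1395 bases and 50.9%.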
